A study of Vernicia fordii with 6 samples.

Results

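Phenylpropanoid and lignin genes of the tung tree, Vernicia fordii, a monoecious oil tree of the spurge family, were compared between its male and female flowers. Members were all unigenes (assembled transcripts) whose best SwissProt match was described as a phenylalanine ammonia-lyase, 4-coumarate ligase or laccase, or by a word containing cinnam, caffeoyl or a related term. Of 56065 unigenes, 117 fitted (0.209%), and they matched 63 different SwissProt entries. RNA was sequenced from 3 samples of male and 3 samples of female flower buds at developmental stage 7 of 4-year-old trees, with no treatment in either group. According to the study's methods, each sample pooled many buds and buds of both sexes came from the same plant. Stage 7 was chosen by the study as the first stage at which the sexes differ in form. The samples were whole buds, so fewer cells of a type and less RNA per cell cannot be told apart.

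The phenylpropanoid pathway turns phenylalanine into hydroxycinnamic acids and their CoA esters, and from these into monolignols, the building blocks of lignin. Phenylalanine ammonia-lyase (PAL), cinnamate 4-hydroxylase (C4H) and 4-coumarate:CoA ligase (4CL) form its entry, and HCT, caffeoylshikimate esterase (CSE), the O-methyltransferase CCoAOMT, cinnamoyl-CoA reductase (CCR) and cinnamyl alcohol dehydrogenase (CAD) lead on to the monolignols. Laccases and class III peroxidases oxidise monolignols in the cell wall. In flowers the same pathway also feeds flavonoids and the hydroxycinnamoyl spermidines of the pollen coat, which in Arabidopsis are made in the tapetum by spermidine hydroxycinnamoyl transferase (SHT).

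The libraries held 11467832 to 40385019 reads. Female replicate 3 stood apart: the 5 unigenes whose reads, summed across the 6 libraries, were highest took 54.9% of its total, and it correlated with the other females by 0.80 on the log2 scale, within the 0.76 to 0.82 seen between the sexes. The same 5 unigenes took 36.9% in male replicate 1, 21.1% in male replicate 3 and at most 4.46% in the other 3 libraries. Levels below are therefore RPKM on TMM-scaled library totals, the smallest being 3648171 (female replicate 3) and the largest 73636463 (female replicate 2). Differences are log2 values, male minus female, from edgeR's quasi-likelihood F test with the Benjamini-Hochberg adjustment over the 29327 unigenes with enough reads. DEGs were those with at least a 2-fold difference and an adjusted p below 0.05. A unigene is not always a whole gene: 38 of the 117 were shorter than 700 bp, and reads of near-identical copies could be split between unigenes.

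Few phenylpropanoid unigenes passed the test. Of the 117, 89 had enough reads. The 28 left out had at most 153 reads each in all libraries together, and 15 of them were laccases. In male flowers 3 of the 89 (3.37%) were higher, against 1.56% of all unigenes tested, and these were a CCoAOMT, an SHT and a CSE match. None was called higher in female flowers by edgeR, where 0.143% of all unigenes were. In either direction 1.7% of all unigenes were called. At an unadjusted p under 0.05, 12 members (13.5%) were higher in male flowers against a background of 5.75%, and 5 (5.62%) were higher in female flowers against 7.42%. DESeq2 called 6 members higher in male flowers (background 2.51%) and 3 higher in female flowers (background 1.5%). On log2(RPKM + 1) of the deposited RPKM, without TMM, limma called 2 higher in male flowers (background 1.14%) and 0 in female flowers (background 0.058%). The median difference of the 89 was 0.21 on the log2 scale, beside -0.09 for all unigenes tested, with 51 above and 38 below 0. On library totals without TMM the 2 medians were -0.04 and -0.41, and 11 members changed direction. The levels of the sexes did not overlap for 24 members (27.0%; background 19.4%), 19 of them higher in male flowers (background 10.4%) and 5 higher in female flowers (background 9.06%). On RPKM as deposited 10 members (11.2%) were separated, against 4.74% of all unigenes. The number of calls depended on single libraries. Without female replicate 3, 5 members were called higher in male flowers (background 1.83%) and 1 in female flowers (background 0.789%), and 43 of the 89 were separated (background 47.9%). Without male replicate 1, 5 were called higher in male flowers (background 1.85%) and 1 in female flowers (background 0.149%), and 37 were separated (background 33.9%). A single member was called higher in male flowers without female replicate 1 (background 0.959%) or without female replicate 2 (background 0.879%).

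**Figure D1:**
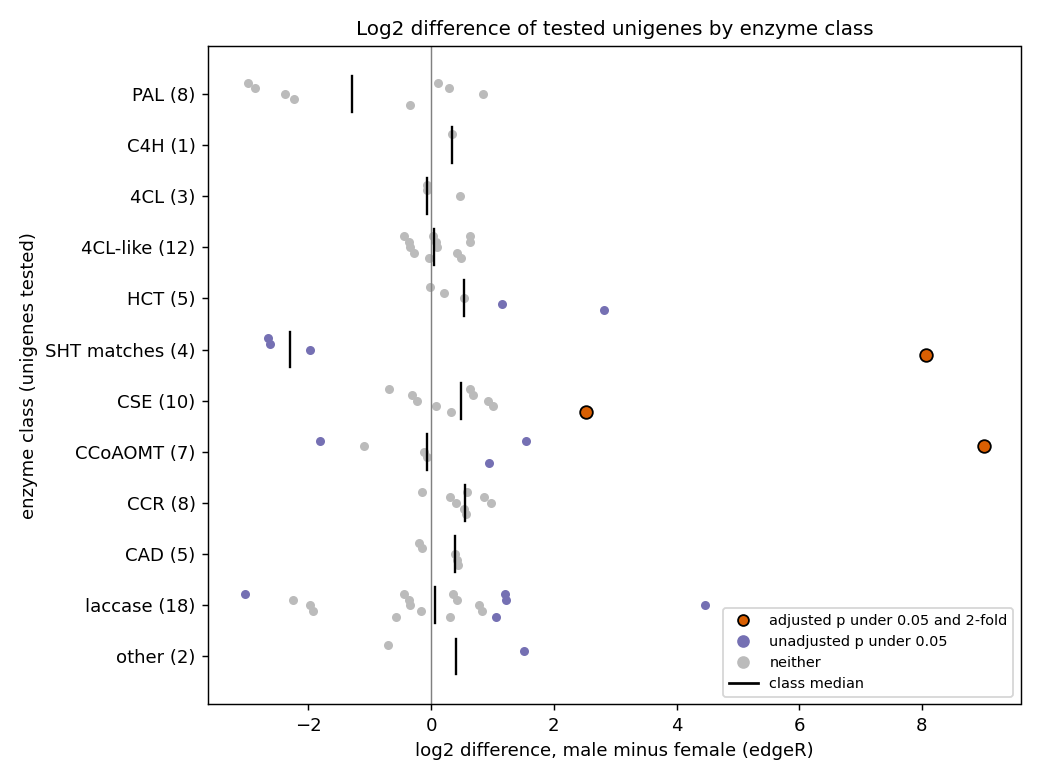
Log2 difference between the sexes (x axis, male minus female, edgeR) of tested phenylpropanoid unigenes, by enzyme class (y axis, number tested in brackets, with 1 class not shown). Each point is 1 unigene, coloured by its test, and the black tick is the class median. The 3 DEGs lie at 2.53, 8.06 and 9.0, and most other points lie within 1 log2 unit of 0.

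The most male-biased member was contig_36598, whose best match is the putative CCoAOMT At1g67980 of Arabidopsis. CCoAOMT adds a methyl group to caffeoyl-CoA. Its level was 65, 11.3 and 18.3 RPKM in male replicates 1 to 3, against 0.131, 0 and 0 RPKM in female replicates 1 to 3. It was detected in every male library, and in female flowers it had reads in 1 library only, 9 reads in all beside 1511 in males. The difference was 9.0 on the log2 scale (SE 1.33; edgeR adjusted p = 0.0137). It stayed a DEG when any 1 of the 6 libraries was left out, with adjusted p between 0.0179 and 0.0366 by edgeR.

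The second was contig_34839, a match to Arabidopsis SHT. Its levels were 48.5, 7.33 and 11 RPKM in male replicates 1 to 3 and 0.0725, 0.055 and 0.317 RPKM in female replicates 1 to 3. All male samples lay far above all female samples, and male replicate 1 was the highest, as it was for contig_36598. The mean in male flowers was 150.2 times that in female flowers, and the log2 difference was 8.06 (SE 1.08, edgeR adjusted p = 0.00899). It had 1485 reads in males and only 16 in females, so its female levels are imprecise. On pooled reads the ratio was 264.5, with a 95% interval for counting error of 162 to 464. The call was lost without female replicate 1 (edgeR adjusted p = 0.0558) or female replicate 2 (edgeR adjusted p = 0.0664).

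The third was contig_27190, a CSE match. CSE releases caffeate from caffeoyl shikimate, while the NR match of contig_27190 names only a hydrolase family protein. Levels were 17.8, 14.3 and 12.5 RPKM in male flowers and 2.74, 2.03 and 3.06 RPKM in female flowers. The samples of each sex lay close together, unlike those of the other DEGs. The log2 difference was 2.53 (SE 0.34; edgeR adjusted p = 0.00847), a mean 5.69 times as high in male flowers. The call was lost without female replicate 1 (edgeR adjusted p = 0.0536), without female replicate 2 (0.0662 by edgeR) and on library totals without TMM (0.572 by edgeR). It was also lost with limma on log2(RPKM + 1) (adjusted p = 0.906), which used RPKM as deposited and so also lacked TMM. Summing all unigenes of the same SwissProt entry ended the calls of all 3, with log2 differences of 3.14 for the entry of contig_36598, 0.29 for that of contig_34839 and -0.034 for that of contig_27190.

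**Figure D2:**
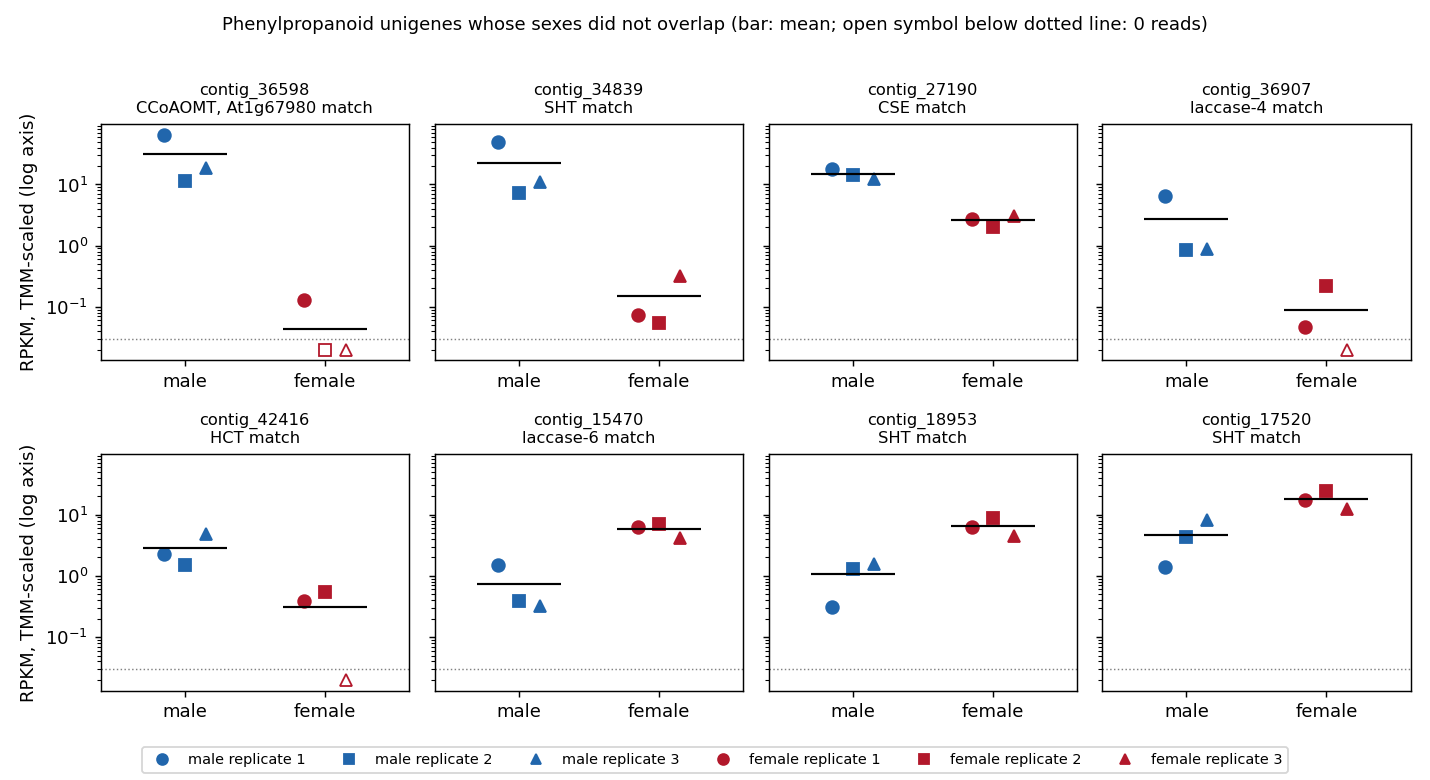
Levels (y axis, RPKM on TMM-scaled totals, log axis) of 8 phenylpropanoid unigenes whose sexes did not overlap, in male flowers (left, blue) and female flowers (right, red). Each symbol is 1 library, its shape gives the replicate, the bar is the mean of 3, and open symbols below the dotted line had 0 reads. The 3 DEGs come first in the upper row. contig_15470, contig_18953 and contig_17520 in the lower row were higher in every female library.

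Markers of other cell types were read in the same libraries, by SwissProt description. In the study, stamens of male flowers at stage 7 were oval primordia, with tapetum and pollen described only at later stages. The pollen and tapetum lists thus name genes by description and do not show that such cells were present. The 22 unigenes of the pollen list summed to 464 to 822 RPKM in male libraries and 151 to 301 RPKM in female libraries, and 4 of 16 tested were called higher in male flowers (background 1.56%). In that list 2 unigenes, both matching the pollen allergen Ole e 6, reached 108 to 173 and 21.8 to 41.5 RPKM in male libraries and had no read in any female library. Another Ole e 6 match, contig_53712, had 0, 3 and 7 reads in male replicates 1 to 3 and 2, 13 and 0 reads in female replicates 1 to 3. A different unigene of the list had no read in male libraries. The 12 unigenes of tapetum and pollen wall summed to 147 to 191 RPKM in male libraries and 102 to 194 RPKM in female libraries. Of the 10 tested, 2 differences were above 0 and 8 below, and edgeR called 0 in either direction. At an unadjusted p under 0.05 by edgeR, 1 was higher in male flowers (background 5.75%) and 0 in female flowers (background 7.42%). The 9 carpel and ovule unigenes summed to 20.6 to 32.4 RPKM in male libraries and 38.1 to 43.9 RPKM in female libraries, and no unigene of that list was without reads in either sex. Of the 8 tested, 7 differences were below 0 and 4 were separated with the females above (background 9.06%), while edgeR called 0 in either direction. At an unadjusted p under 0.05 by edgeR, 0 were higher in male flowers (background 5.75%) and 2 in female flowers (background 7.42%). The 16 of xylem and secondary wall summed to 161 to 234 RPKM in male libraries and 150.3 to 285 RPKM in female libraries, and of 15 tested edgeR called 0. At an unadjusted p under 0.05 by edgeR, 5 were higher in male flowers (background 5.75%) and 0 in female flowers (background 7.42%). The 38 of green tissue summed to 1471 to 3183 RPKM in male libraries and 688 to 7902 RPKM in female libraries, the highest in female replicate 3. The pollen sum was higher in every male library than in every female library, as were the levels of the 3 phenylpropanoid DEGs. Among males it was lowest in male replicate 1 (464 RPKM, beside 606 and 822 RPKM in the others), the library in which contig_36598 and contig_34839 were highest. Its part in the differences of the DEGs was not tested.

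At the entry of the pathway no unigene passed the test. PAL removes ammonia from phenylalanine, and 8 of its 9 unigenes were tested. The most abundant, contig_2925, had 56.8, 75 and 37.6 RPKM in male flowers and 76.6, 90.9 and 48.4 RPKM in female flowers, with a log2 difference of -0.35 (SE 0.40; edgeR adjusted p = 0.743). The sexes overlapped, with replicate 3 the lowest of each. Another 4 PAL unigenes, chosen after their values were seen, were of 314 to 674 bp and had 89.4% to 92.4% of all their reads in female replicate 1. Summed, these 4 reached 1.41, 34.2 and 6.3 RPKM in male replicates 1 to 3 and 242, 6.43 and 4.35 RPKM in female replicates 1 to 3. Female replicate 1 thus stood alone. Their log2 differences were -2.98 to -2.23, and none had an unadjusted p under 0.05. The total of all 9 PAL unigenes was 101, 162 and 99 RPKM in male flowers and 363, 145 and 84.9 RPKM in female flowers.

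C4H, the cytochrome P450 that hydroxylates cinnamate, was represented by contig_1214, the only tested unigene of 3. It had 66.1, 132 and 140.4 RPKM in male flowers and 76.3, 77.4 and 113 RPKM in female flowers, and the sexes overlapped (log2 0.34, SE 0.43; edgeR adjusted p = 0.769). 4CL activates 4-coumarate to its CoA ester. Its leading unigene, contig_2117, had 21, 39.2 and 55.6 RPKM in male flowers and 33.3, 34.6 and 54.1 RPKM in female flowers. Neither sex was higher throughout, and male replicate 1 was the lowest library for both C4H and 4CL. The log2 difference of contig_2117 was -0.07 (SE 0.43; edgeR adjusted p = 0.955), and its sign turned under several settings.

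The 12 unigenes matching 4CL-like proteins spread over -0.44 to 0.64 on the log2 scale, and none had an unadjusted p under 0.05. This group holds relatives of 4CL with other substrates: in Arabidopsis, 4CL-like 5 activates precursors of jasmonate and 4CL-like 10 is an oxalate-CoA ligase. The highest, contig_4423 (a 4CL-like 10 match), had 49.9, 51.9 and 66.6 RPKM in male flowers and 20.4, 18.1 and 70.7 RPKM in female flowers. Female replicate 3 was above every male library and the other females were below them all. Its log2 difference was 0.63 (SE 0.56; edgeR adjusted p = 0.662), and without female replicate 3 it was 1.69 (edgeR adjusted p = 0.0374).

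HCT couples 4-coumarate to shikimate, the step before ring hydroxylation. contig_1048 was by far its most abundant unigene, with 62825 reads. It had 267, 471 and 454 RPKM in male flowers, against 147, 168 and 223 RPKM in female flowers. The sexes did not overlap on TMM-scaled totals, but they did on RPKM as deposited. The log2 difference of 1.15 (SE 0.47) did not pass the adjustment (edgeR adjusted p = 0.355). A less abundant unigene, contig_42416, matched HCT, while its NR match names a putative anthranilate N-benzoyltransferase. It had 2.28, 1.5 and 4.91 RPKM in male flowers and 0.383, 0.548 and 0 RPKM in female flowers. It was also separated (log2 2.82, SE 0.75; edgeR adjusted p = 0.17), and DESeq2 called it (adjusted p = 0.00964).

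CSE had 11 unigenes, all to 1 Arabidopsis entry, of which 10 were tested. The NR matches of contig_7351, contig_6800, contig_22285 and contig_15418 named a putative monoglyceride lipase instead. That of contig_22531 named a caffeoylshikimate esterase. Which of these unigenes act as CSE was not tested. Beside the DEG contig_27190, 6 tested differences were above 0 and 3 below. contig_394 was the highest on average, with 40.4, 61.3 and 157 RPKM in male flowers and 23.4, 29.7 and 367 RPKM in female flowers. Female replicate 3 alone exceeded the males, and the other females were below them all. The log2 difference was -0.69 (SE 1.06; edgeR adjusted p = 0.814) and became 1.85 without female replicate 3. A second CSE match with a high female replicate 3, contig_838, was chosen after its values were seen. It had 29.6, 20.8 and 35.7 RPKM in male flowers and 4.58, 5.22 and 33.9 RPKM in female flowers, and without female replicate 3 its log2 difference was 2.69 (edgeR adjusted p = 0.0115).

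The 10 CCoAOMT unigenes, of which 7 were tested, summed to 207 ± 34.6 RPKM in male flowers and 82.6 ± 3.94 RPKM in female flowers (SD, n = 3 each). The sexes did not overlap in that sum, and the DEG contig_36598 was 1 of 3 among the 7 tested that were separated with the males above (background 10.4%). contig_22182, matching the probable CCoAOMT At4g26220, had 98, 101 and 60.0 RPKM in male flowers and 37.9, 41.2 and 8.31 RPKM in female flowers. contig_7558, a CCoAOMT match, had 70.8, 90.5 and 86.9 RPKM in male flowers and 36.2, 28.1 and 65.4 RPKM in female flowers. Both were separated on TMM-scaled totals, though not on RPKM as deposited. Their log2 differences were 1.55 (SE 0.58) and 0.94 (SE 0.39), with edgeR adjusted p of 0.315 and 0.359. The low contig_16209 pointed the other way, with 0.818, 0.318 and 0.76 RPKM in male flowers and 1.92, 2.15 and 2.57 RPKM in female flowers (log2 -1.82, SE 0.56; edgeR adjusted p = 0.235). contig_33208, the other match to At1g67980, had a log2 difference of -1.09 (SE 0.85), so the 2 unigenes of that entry differed in sign.

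The last steps to the monolignols, CCR and CAD, showed no DEG. CCR, which reduces the CoA esters to aldehydes, had 8 unigenes, 7 of them with a difference above 0 (also on library totals without TMM) and none called. Its leading unigene contig_185 had 67.3, 186 and 125 RPKM in male flowers and 61.7, 66.9 and 64.3 RPKM in female flowers. Male replicate 1 was just above the highest female (log2 0.97, SE 0.43, edgeR adjusted p = 0.391). On RPKM as deposited the sexes overlapped for contig_185. CAD reduces the aldehydes to monolignols. Its leading unigene contig_1581 had 69.1, 142 and 121 RPKM in male flowers and 118, 115 and 134 RPKM in female flowers. The sexes overlapped, and the log2 difference was -0.14 (SE 0.39; edgeR adjusted p = 0.906). The tested CAD unigenes all lay between -0.19 and 0.44.

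**Figure D3:**
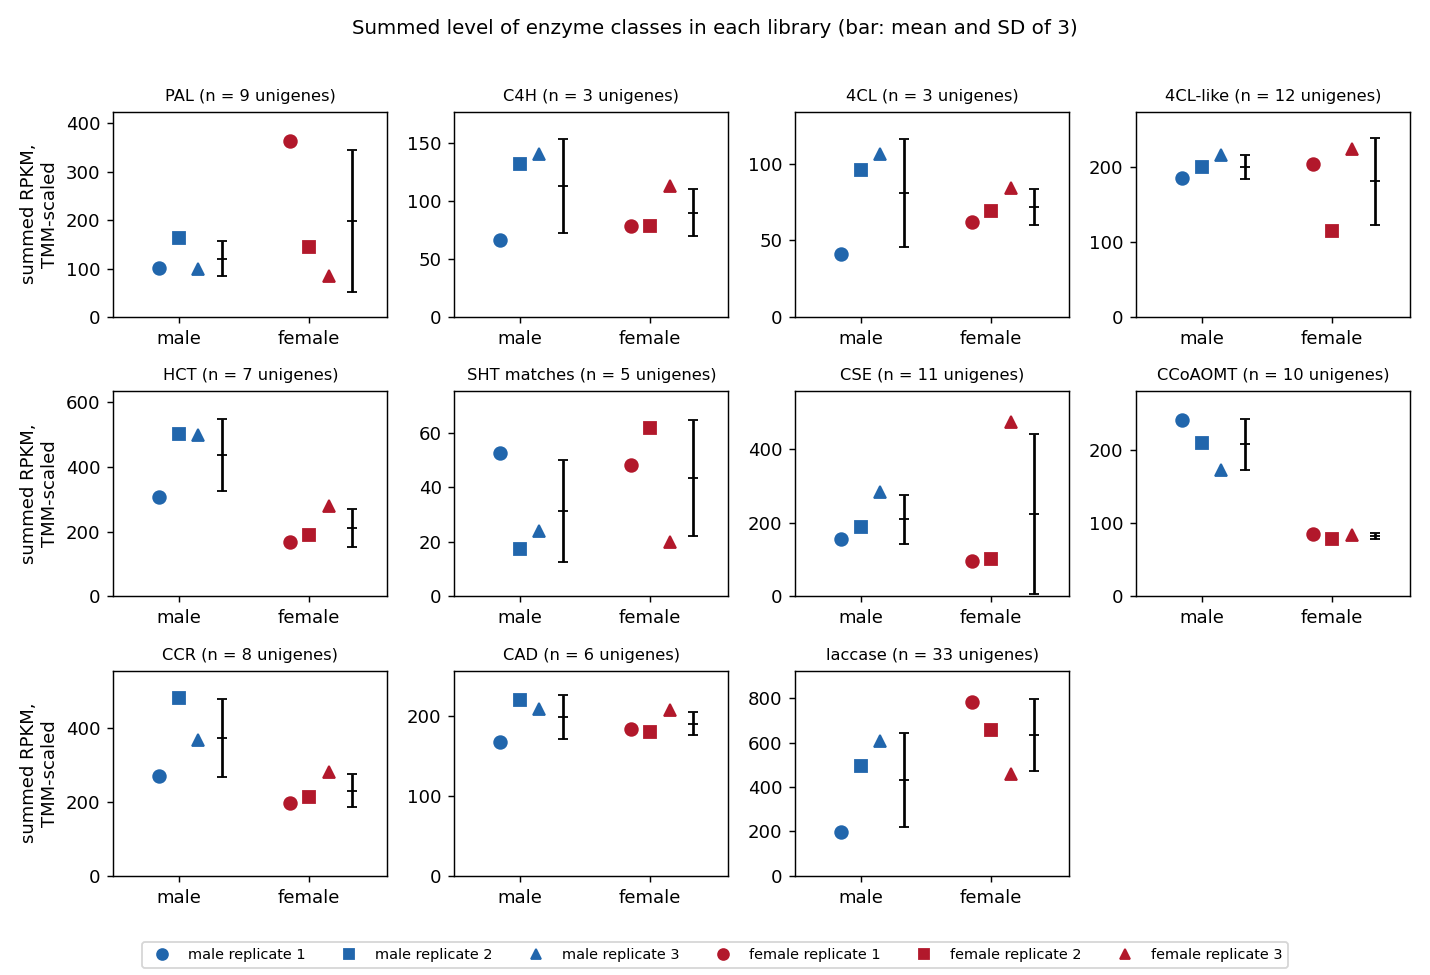
Summed level (y axis, RPKM on TMM-scaled totals, from 0) of 11 enzyme classes in each library, male flowers left in blue and female flowers right in red. Symbols are libraries and the black bars give the mean and SD of 3, over all unigenes of the class with none left out. CCoAOMT, at 172 to 241 RPKM in male flowers and 78.1 to 85.3 RPKM in female flowers, shows no overlap on this scale. Nor does HCT, at 307 to 502 and 168 to 279 RPKM, though its sums overlap on library totals without TMM. PAL in female replicate 1 and CSE in female replicate 3 stand out.

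Matches to SHT held both directions. While contig_34839 was higher in male flowers, the other 3 tested unigenes of the same entry averaged higher in female flowers. contig_17520 had 1.38, 4.34 and 8.14 RPKM in male flowers and 17.6, 24.1 and 12.4 RPKM in female flowers. contig_18953 had 0.305, 1.28 and 1.59 RPKM in male flowers and 6.33, 8.79 and 4.41 RPKM in female flowers. Both were separated with the female samples above. Their log2 differences were -1.97 (SE 0.61; edgeR adjusted p = 0.239) and -2.62 (SE 0.61; edgeR adjusted p = 0.112), and DESeq2 called contig_18953 (adjusted p = 0.00378). contig_24466, chosen after its values were seen, had 2.26, 3.85 and 2.34 RPKM in male flowers and 22.7, 27 and 2.92 RPKM in female flowers. Its female replicate 3 lay among the males, and its log2 difference was -2.65 (SE 0.73; edgeR adjusted p = 0.183), or -2.97 without that library (edgeR adjusted p = 0.0110). Within this entry differences thus ran from -2.65 to 8.06, the widest span of the 17 SwissProt entries with several tested unigenes.

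Laccases were the largest class, with 33 unigenes and 18 tested, and none passed the edgeR test. Differences were above 0 for 9 and below 0 for 9, or 6 and 12 on library totals without TMM. Matches to laccase-9 dominated, with 75.6% to 90.7% of the summed laccase level in male libraries and 79.7% to 94.4% in female libraries. The leading one, contig_1512, had 87.3, 279 and 376 RPKM in male flowers and 360.3, 311 and 266 RPKM in female flowers. Male replicate 1 was the lowest library and male replicate 3 the highest, so the sexes overlapped (log2 -0.34, SE 0.61; edgeR adjusted p = 0.843). The short laccase-9 match contig_3729, chosen after its values were seen, had 24.4, 27.8 and 3.36 RPKM in male flowers and 164, 93.6 and 4.45 RPKM in female flowers, with replicate 3 of each sex far below the others.

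Laccase-4 takes part in lignification of the Arabidopsis stem. On TMM-scaled totals, all 4 unigenes matching an enzyme of that name (3 in Arabidopsis, 1 in rice) were separated with the male samples above (background 10.4%). They were the only ones so separated among the 18 tested laccases. On library totals without TMM the sexes overlapped for contig_22487 and contig_20891. The group was picked after the values were seen, so the background is no test of it. Whether the rice enzyme shares the role in the stem was not tested. Of the 15 tested xylem and secondary wall markers, 7 were also separated with the males above (background 10.4%). With the females above, 1 was separated (background 9.06%). By edgeR, 5 of the 15 were higher in male flowers at an unadjusted p under 0.05 (background 5.75%), and not all of these 5 were separated. The part of these markers in the laccase-4 levels was not tested. contig_36907 had 6.41, 0.858 and 0.88 RPKM in male flowers and 0.0463, 0.218 and 0 RPKM in female flowers (log2 4.47, SE 1.15; edgeR adjusted p = 0.151). Male replicate 1 held most of its level, and DESeq2 called it (adjusted p = 0.000543). The other 3, chosen after their values were seen, were smaller differences. contig_22487 had 9.37, 6.03 and 6.53 RPKM in male flowers and 3.84, 2.51 and 4.26 RPKM in female flowers. contig_20891 had 4.59, 1.98 and 2.76 RPKM in male flowers and 1.46, 0.992 and 1.6 RPKM in female flowers. contig_8375 had 10.1, 8.63 and 9.99 RPKM in male flowers and 4.33, 4.23 and 3.82 RPKM in female flowers. Their log2 differences of 1.06, 1.22 and 1.2 (SE 0.35, 0.46 and 0.39) did not pass the adjustment, with edgeR adjusted p of 0.274, 0.32 and 0.262.

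Laccase-6 pointed the other way. contig_15470 had 1.49, 0.394 and 0.325 RPKM in male flowers and 6.39, 7.08 and 4.12 RPKM in female flowers. Every female sample was above every male one. The log2 difference was -3.03 (SE 0.64; edgeR adjusted p = 0.0784), the lowest of all tested members. With the replicate number as a block, which pairs the sexes by number, it was -3.27 and passed (edgeR adjusted p = 0.0310). It also passed without male replicate 1 (edgeR adjusted p = 0.00834), with no expression filter (0.0275 by edgeR) and with DESeq2 (adjusted p = 0.000597). A laccase-14 match, contig_1797, and a laccase-21 match, contig_6530, chosen after their values were seen, varied within each sex. contig_1797 had 0, 1.97 and 10.2 RPKM in male flowers and 11.2, 0.207 and 37.8 RPKM in female flowers. contig_6530 had 0, 2.12 and 6.82 RPKM in male flowers and 14.8, 0.264 and 20.4 RPKM in female flowers. Both were highest in female replicate 3 and without a read in male replicate 1.

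**Figure D4:**
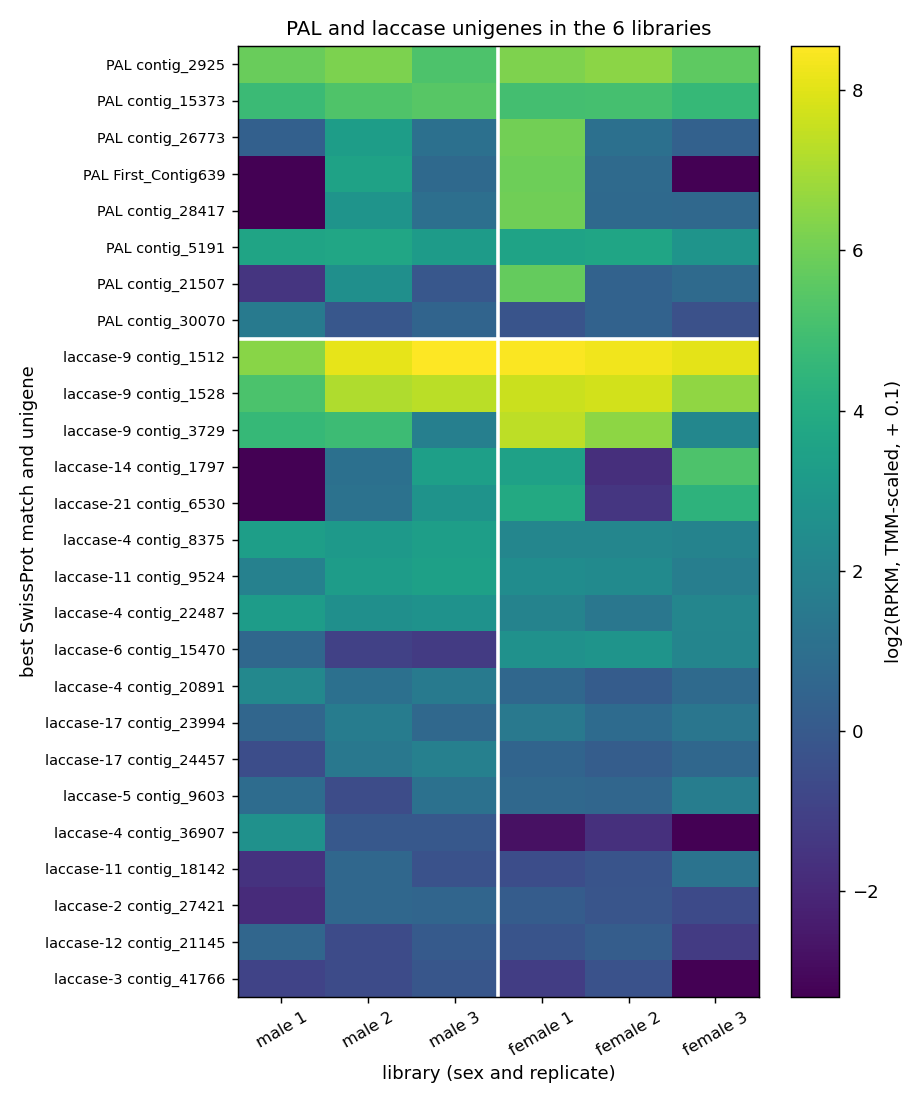
Levels of the 8 tested PAL unigenes (above the white line) and 18 tested laccase unigenes (below it), 1 row each, in the 6 libraries (x axis, males left of the white line). Colour is log2 of the RPKM on TMM-scaled totals plus 0.1. The 4 short PAL unigenes are bright in female replicate 1, 2 of the 3 laccase-9 matches lead the laccases in all libraries, and laccase-4 match contig_36907 is brighter in males while laccase-6 match contig_15470 is brighter in females.

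Cinnamate can also be glucosylated. contig_490, matching the cinnamate glucosyltransferase of strawberry, had more reads than any other member (142518). It had 70.5, 267 and 390.0 RPKM in male flowers and 364, 482 and 337 RPKM in female flowers. The sexes overlapped and male replicate 1 was the lowest (log2 -0.70, SE 0.67; edgeR adjusted p = 0.69). Over all 117 members the summed level was 2012, 3231 and 3452 RPKM in male replicates 1 to 3 and 2801, 2553 and 2819 RPKM in female replicates 1 to 3. The female range lay inside the male range, and male replicate 1 was the lowest of the 6.

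Genes that serve the pathway but were no members gave 195 unigenes, of which 148 were tested. In male flowers 4 were called higher (2.70%; background 1.56%) and by edgeR 0 in female flowers (background 0.143%). At an unadjusted p under 0.05 by edgeR, 18 were higher in male flowers (background 5.75%) and 10 in female flowers (background 7.42%). DESeq2 called 13 higher in male flowers (background 2.51%) and 0 in female flowers (background 1.5%). For all 4 called by edgeR the sexes did not overlap. A match to peroxidase 65, contig_38315, had 6.03, 29.8 and 35.7 RPKM in male flowers and 0.0123, 0.0093 and 0 RPKM in female flowers (log2 10.83, SE 1.02; edgeR adjusted p = 0.0016). Class III peroxidases share the oxidation of monolignols with laccases. An L-ascorbate oxidase homologue, contig_27805, which like laccases belongs to the multicopper oxidases, had 78.8, 85.6 and 113 RPKM in male flowers and 0.0083, 0.0378 and 0 RPKM in female flowers (log2 11.86, SE 0.72; edgeR adjusted p = 0.000311). The other two matched isoflavone reductase-like proteins, a family with enzymes of lignan synthesis. contig_23786 had 54.1, 58.4 and 56.4 RPKM in male flowers and 11.6, 12.4 and 12.3 RPKM in female flowers (log2 2.22, SE 0.27; edgeR adjusted p = 0.00523). contig_20640 had 57.7, 37.5 and 44.5 RPKM in male flowers and 8.77, 8.67 and 11.1 RPKM in female flowers (log2 2.30, SE 0.31; edgeR adjusted p = 0.00905). Without female replicate 1 (background 0.959%) or female replicate 2 (background 0.879%), 2 serving genes were called higher in male flowers. Without female replicate 3 (background 1.83%) the count was 8.

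Of the other serving genes, none was called by edgeR. The 7 tested unigenes of the ring hydroxylases CYP98A and CYP84A and their reductase all had differences above 0, with a median of 0.66 on the log2 scale beside -0.09 for all unigenes, but only 4 of the 7 were above 0 on library totals without TMM. The 39 tested unigenes of shikimate and phenylalanine supply had a median of -0.21, with 13 above and 26 below 0. The 33 of class III peroxidases had a median of -0.14 with 13 above 0, and the 23 of dirigent and lignan enzymes and the 15 of other multicopper oxidases had medians of 0.15 and 0.26, which were -0.17 and -0.04 on library totals without TMM. The 16 of regulators of lignin genes had a median of -0.81, the 10 of methyl donor supply 0.21 and the 5 at the entry of the flavonoid branch 0.82.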

How the data were processed

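RNA of whole flower buds was sequenced on an Illumina instrument for 3 male and 3 female samples, and all 6 were used. According to the study's methods, the authors trimmed adapters and low-quality reads and built unigenes from the clean reads without a reference (CLC Genomics Workbench, then CAP3), so no genome build or coordinates apply. The mapping and counting program is not given in the sources. The deposited table lists the authors' read counts per unigene, not normalized, RPKM per library total made by the authors from these counts, lengths and best SwissProt and NR matches. Its column names mark sex as gy and an, read here as female and male, with the replicate number. All columns of samples were used (0 left out), and 7 lines with no unigene or a repeat were dropped.

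Read counts were fitted in R 4.3.3 with edgeR 4.0.16 (filterByExpr, TMM, prior count 0.125, quasi-likelihood F test), with DESeq2 1.42.0 and limma 3.58.1 on log2(RPKM + 1) as alternatives. The limma fit used RPKM as deposited, per library total without TMM. Tables and figures used Python 3.11.15, pandas 2.3.3, numpy 2.4.6, scipy 1.17.1 and matplotlib 3.10.9. A unigene was called at an adjusted p under 0.05 and a log2 difference of at least 1. SEs were obtained from the F statistic, as the size of the log2 difference over the root of F. The study's own DEGseq test on RPKM was replaced by one that uses the spread between replicates. TMM factors were 0.808 to 1.37 in males and 0.319 to 1.86 in females, lowest in female replicate 3, where low levels are least precise. Scripts were tested on simulated data.

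Deviations from the mean of each sex correlated by 0.19, 0.13 and 0.37 for samples of the same number. For samples of different numbers they ran from -0.32 to 0.16, the highest between male replicate 1 and female replicate 2. The methods take both sexes from the same plant but do not tie replicate numbers to plants, so pairing by number is uncertain. The main test did not pair samples, and the blocked value is given where it changes a call. Whether replicates came from separate trees is not stated, so p-values measure the spread between these samples.

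Named members were every called one, the most abundant of each enzyme class, and up to 6 in each direction with the largest differences among those with an unadjusted p under 0.05 and no overlap. Of the serving genes the called ones were named. Members and lists were chosen with earlier results of these data known. Other settings tried were median-of-ratios scaling, library totals without TMM, no expression filter, a replicate block, no fold threshold, unigenes of 1 SwissProt entry summed, and each library left out. The values of 1 class of members are not reported here, though its unigenes stay in the counts over all members.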

Additional observations from a re-analysis of the deposited data

How the results depend on the processing

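The number of members called higher in male flowers, 3, ran from 1 to 5 with 1 library left out, was 6 with DESeq2 and was 0 with unigenes of the same SwissProt entry summed. The number called higher in female flowers, 0, was 1 with no expression filter, 1 with the replicate block and 3 with DESeq2, and ran from 0 to 1 with 1 library left out. Of the serving genes, 4 higher in male flowers, the count was 7 with no filter and 13 with DESeq2, and ran from 2 to 8 with 1 library left out; that for female flowers, 0, ran from 0 to 1. The share of all unigenes called was not computed with no filter, with the replicate block or with entries summed. It was also not computed without male replicate 2 or 3, so these counts lack a background. Separated members, 24, were 10 on RPKM as deposited and 26 to 43 with 1 library left out, where fewer samples make separation easier.

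With entries summed, the entries of contig_27190 (-0.034), contig_17520 and contig_18953 (both 0.29) reversed on the log2 scale. contig_394 reversed on library totals without TMM (0.26), with the replicate block (0.23), with limma (0.19) and with 1 library left out (-1.39 to 1.85, above 0 without female replicate 3). contig_2117 reversed with no filter (0.087), with DESeq2 (0.0071) and with 1 library left out (-0.32 to 0.34, above 0 without male replicate 1, male replicate 2 or female replicate 3). contig_1581 reversed with no filter (0.019) and with 1 library left out (-0.28 to 0.23, above 0 without male replicate 1 or female replicate 3), and contig_1512 with 1 library left out (-0.64 to 0.20, above 0 without male replicate 1). Summing joins unigenes of opposite sign; for the other changes the cause was not tested. The replicate block changed no call other than that of contig_15470. Of 286 log2 differences recomputed for the named members, 253 kept their direction and side of the threshold, 16 reversed, 9 passed the threshold only under the alternative and 8 no longer passed it. Depth limits female replicate 3 most, and 28 members had too few reads to be tested.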

Other observations

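Some members had reads in female flowers only. A C4H match, contig_55813, had 54 reads over the female libraries and none in male flowers, which makes it at least 6.32-fold lower in male flowers against a floor of 3 reads over the male group. On the same floor the HCT match contig_29814 (39 reads) was at least 4.56-fold lower in male flowers, and 2 laccase-15 matches, contig_56389 (24 reads) and contig_55772 (19 reads), at least 2.81-fold and 2.22-fold lower. These bounds cover counting error only, and the unigenes were too low to be tested.

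The 4CL-like 9 match contig_36704 had 12, 7.48 and 0 RPKM in male replicates 1 to 3 and 14.6, 8.53 and 0 RPKM in female replicates 1 to 3, so that replicate 3 of both sexes had no read. The member contig_5191, a PAL match of 9874 bp, carries an NR match to a MORPHEUS MOLECULE family protein, and its levels were 12.2, 12.9 and 9.03 RPKM in male flowers and 11.9, 12.7 and 7.02 RPKM in female flowers. The member contig_13823 is described as an anthocyanin malonyltransferase and was caught by the word caffeoyl. It had 40.7, 76.9 and 107 RPKM in male flowers, against 22.0, 32.7 and 24.0 RPKM in female flowers (log2 1.51, SE 0.41; edgeR adjusted p = 0.178), and without male replicate 1 it was called (edgeR adjusted p = 0.0405). These unigenes were chosen after their values were seen.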
